A study of Drosophila melanogaster with 5 samples.

Results

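Neuropeptide receptor genes were examined in open chromatin of dopamine and GABA neurons from adult *Drosophila melanogaster* heads. The set holds 39 genes, chosen by name, and its regions are those of the comparison table whose nearest gene is one of them. There were 263 such regions among the 80590 in the table, next to 38 of the 39 genes. *CapaR*, the receptor of the Capa peptides in the renal tubules, had none. By RefSeq gene spans 206 of the regions lay inside the receptor gene they were assigned to, 17 inside another gene only and 40 between genes. The assay was ATAC-seq, in which the Tn5 transposase cuts accessible DNA and leaves sequencing adapters there. Nuclei were labelled with nuclear GFP through *TH-Gal4* in 2 libraries (dopamine 1 and 2) and through *vGAT-Gal4* in 3 libraries (GABA 1 to 3), and were collected by flow cytometry. Each group is therefore the set of cells in which its driver is active in the head, pooled over many flies. Age and sex were not given in the sources used here. No treatment was applied, and all flies were grown on the same food at the same temperature.

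Neuropeptides are short signals cut from larger precursors and released from neurons or gland cells, often far from the cell that receives them. Most of their receptors are G protein-coupled receptors, which change cyclic AMP or calcium in the receiving cell and so tune its excitability. *InR*, the insulin receptor, is the exception in this set: it is a receptor tyrosine kinase that acts through the PI3 kinase, Akt and foxo branch. A cell answers only those peptides whose receptors it makes, so the regulatory DNA of receptor genes is of interest in any comparison of neuron types.

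The values per library were the deposited peaks. A peak's height is its fold enrichment, the pile-up of reads at its summit over the local background. A region was counted as held by a library when at least 1 bp of it lay under a peak of that library, and its height there was that of the highest such peak. The lists held 69464 and 69940 peaks in the dopamine libraries, against 84055, 81638 and 107219 in the GABA libraries. The lowest fold enrichment listed was 1.80 and 1.93 in the dopamine lists, against 1.25, 1.28 and 1.28 in the GABA lists, so the weakest peaks were listed for GABA libraries alone. The highest was 8.49 and 11.15 in the dopamine lists, against 21.55, 19.95 and 16.01 in the GABA lists. A GABA height above 11.15 thus lies above every dopamine peak, whatever the region. How far this range sets the separation of raw heights at tall regions was not tested. The peak lists hold no read counts, so no counting error stands beside a height, and sequencing depth was not used here. A lower height in a pool of nuclei can come from fewer nuclei with open chromatin or from less opening in each, and these cannot be told apart. The labels do not say whether libraries of a group came from separate fly collections, so p-values measure only the spread between these libraries, which may be technical. As a check of the labels, *ple*, which encodes tyrosine hydroxylase, had 4 of 9 regions in both dopamine lists and no GABA list, and *Gad1*, which encodes glutamate decarboxylase, had 3 of 6 in all GABA lists and no dopamine list. *Vmat*, *DAT* and *VGAT* had no region of either kind, and the dopamine marker *Ddc* had 1 of 5 in the dopamine lists only. The glial gene *Eaat1* had 5 of 13 and the epidermal regulator *grh* 13 of 26 regions in the dopamine lists only, and the glial gene *repo* 3 of 11 and the photoreceptor gene *trp* 5 of 7 in the GABA lists only. The photoreceptor gene *ninaE* had 2 of 11 in the dopamine lists only and 1 in the GABA lists only. In the GABA lists only were also 2 of 7 at the glial gene *alrm*, 1 of 13 at the photoreceptor gene *chp* and 1 of 10 at the muscle gene *Act88F*. Markers of other transmitters lay on the side of the GABA libraries, with 3 of 6 regions in the GABA lists only at the glutamatergic gene *VGlut* and 2 of 9 at the cholinergic gene *VAChT*. In the limma fit of peak heights over shared regions, *VGlut*, *VAChT* and the cholinergic gene *ChAT* each had 1 region higher in GABA neurons and the glial gene *alrm* had 2. *Gad1* had 1 and *VGAT* 2 higher in GABA neurons, as had the neuronal genes *nSyb* (1) and *brp* (4). Higher in dopamine neurons were 1 region each at *ple*, *DAT* and the glial gene *moody*, 4 at *grh* and 2 at the neuronal gene *elav*. *Eaat1* had 2 higher in dopamine and 1 higher in GABA neurons, and none of the 3 shared regions of *Ddc* passed in either direction. The 2 hemocyte markers with regions, *Hml* and *NimC1*, had none of either kind. The part of other cell types in the receptor results was not tested.

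Receptor regions were held by GABA libraries more often than by dopamine libraries. Of the 263 regions, 74 and 86 had a peak in dopamine 1 and 2 (28.1% and 32.7%), against 164, 174 and 179 in GABA 1, 2 and 3 (62.4%, 66.2% and 68.1%). Over all regions of the table the shares were 40.5% and 40.4% in the dopamine libraries, against 49.5%, 49.2% and 60.2% in the GABA libraries. The receptor regions thus lay below the table's share in both dopamine lists and above it in every GABA list.

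Regions held by the libraries of only one neuron type were mostly GABA regions. Among the receptor regions, 13 (4.94%) had a peak in dopamine 1 and 2 but in none of the GABA lists, and are named dopamine-only here. Over the whole table this share was 8.42%. The reverse pattern, a peak in all 3 GABA lists and in no dopamine list (GABA-only), was found at 68 receptor regions (25.9%) and at 13.2% of all regions. A further 48 receptor regions (18.3%) had a peak in all 5 lists, against 20.6% of the table. The other 100 had mixed patterns and 34 lay under no peak. Of the 38 genes with a region, 6 had at least 1 dopamine-only region (15.8%) and 26 at least 1 GABA-only region (68.4%). Over the 14273 genes of the table these shares were 24.7% and 29.7%. These counts describe peak lists of unequal length. Each list was also shortened to its strongest peaks, ranked by q-value and not by height, so that all had the same number. Then 13 receptor regions were dopamine-only and 44 (16.7%) were GABA-only, against 8.71% GABA-only over all regions. With peaks of at least 2-fold enrichment, a limit chosen after the lists had been seen, 14 were dopamine-only and 47 (17.9%) GABA-only, against 9.07% over all regions.

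**Figure D1:**
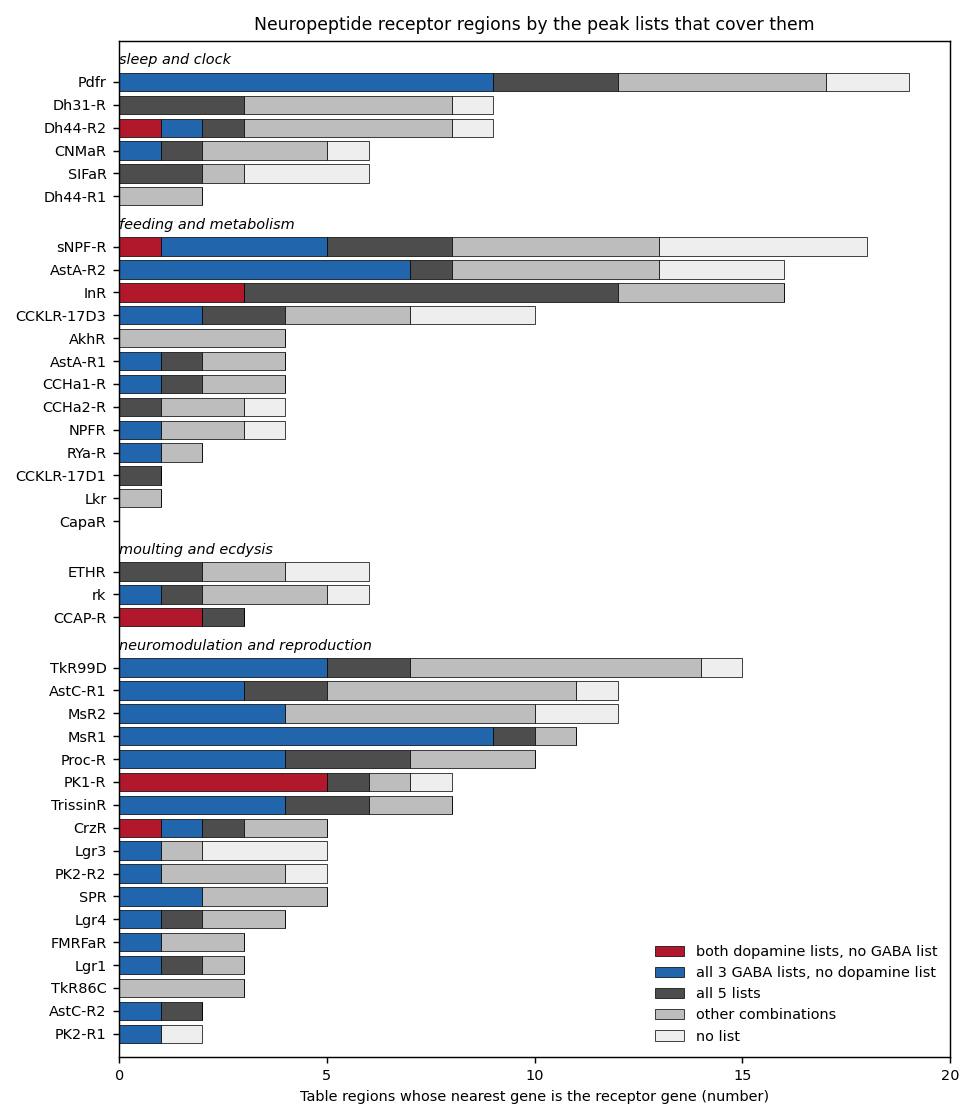
Number of table regions (x axis) next to each of the 39 receptor genes (y axis, grouped by role), with bars split by the peak lists that cover the region. Dopamine-only regions (red) are found at 6 genes, with 5 of them at *PK1-R*, whereas GABA-only regions (blue) are spread over 26 genes.

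The position of the regions differed from that of the whole table. Promoters made up 100 of the 263 receptor regions (38.0%, against 56.1% of all regions), introns 97 (36.9%, against 19.8%), exons 37 (14.1%, against 13.5%) and distal intergenic sequence 20 (7.6%, against 7.12%). Within introns 4 receptor regions were dopamine-only and 32 GABA-only (4.12% and 33.0%), and over all intronic regions 9.47% and 22.0% were. Within promoters 9 were dopamine-only and 14 GABA-only (9.0% and 14.0%), where the table had 10.1% and 7.53%. None of the exonic receptor regions was dopamine-only and 13 were GABA-only (35.1%), with 1.58% and 16.2% over all exonic regions. At distal intergenic sites the counts were 0 and 6 (30.0%), with 5.72% and 25.3% over the table. The GABA-only share stood farthest above that of the table in introns and exons. The dopamine-only share of promoters and the GABA-only share of distal sites were near the table's, and the expected dopamine-only counts in exons and at distal sites were too small to compare. Some of these introns and exons belong to other genes.

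A second view takes each gene's highest peak. It was ranked by percentile within its own list. A longer list with weaker peaks gives the same peak a higher percentile, and the GABA lists were longer and went lower. In 34 of the 38 genes with a region (89.5%) the percentile was higher in every GABA library than in both dopamine libraries, with a gene without a peak set to 0. Among all genes this held for 40.2%. The reverse order was found at 1 receptor gene (*PK1-R*) and at 23.1% of all genes. The dopamine markers did not all follow their label in this measure. *Vmat* had 24.2 and 0 in the dopamine libraries, against 53.7, 53.4 and 63.2 in the GABA libraries. *ple* had the opposite order, with 99.95 and 99.96, against 79.3, 75.7 and 85.1, and *DAT* and *Ddc* overlapped. With all lists shortened to equal length by fold enrichment, an alternative added after the data had been seen, the GABA percentiles were all higher at 29 receptor genes (76.3%, against 33.1% of all genes), and the dopamine percentiles at 1 (*PK1-R*, against 28.7% of all genes). In the whole lists the percentiles of *InR*, *AkhR* and *Lkr* overlapped between the neuron types. *Lgr1* was separated by little, with 61.1 and 75.0 in the dopamine libraries, against 77.9, 76.5 and 75.1 in the GABA libraries. At 3 receptor genes the highest peak lay above the 99.5th percentile in every GABA list, namely *MsR1*, *sNPF-R* and *Dh44-R2*. Those of *Dh44-R2* reached 91.0 and 95.6 in the dopamine libraries, so a gene could stand high in both neuron types and still be separated.

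**Figure D2:**
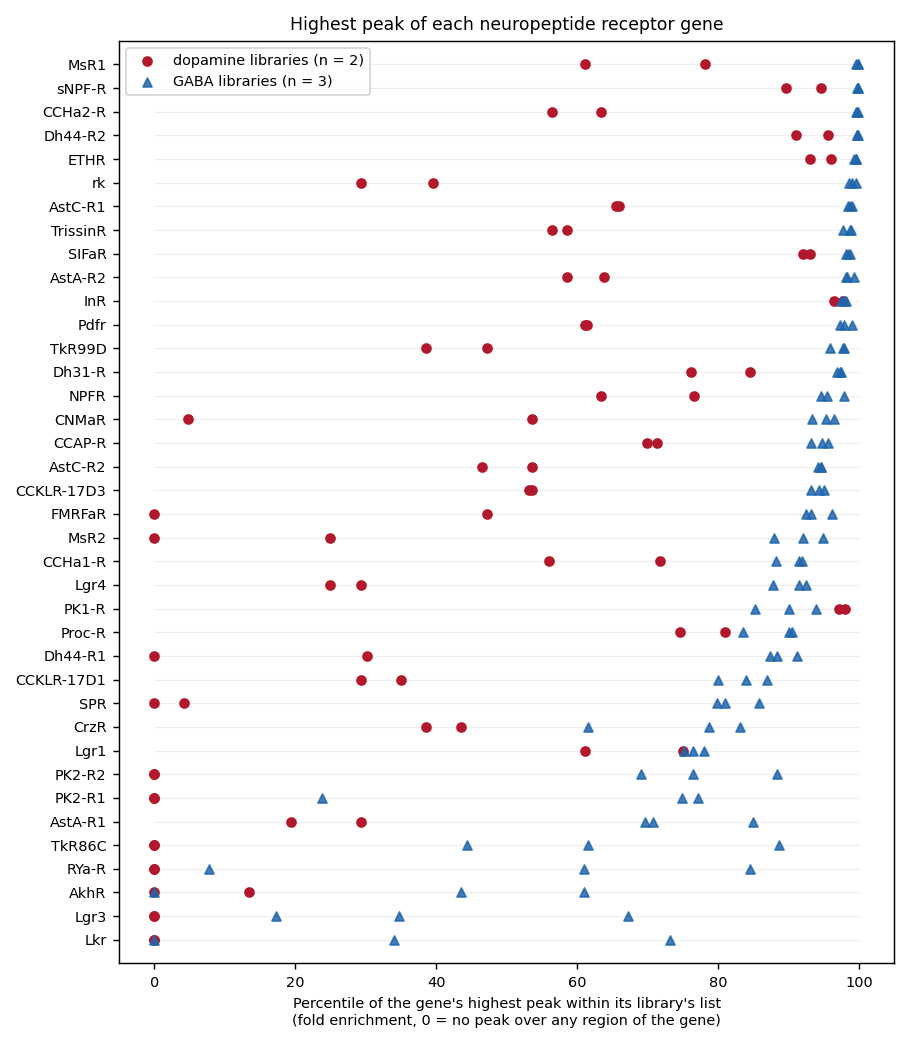
Percentile of the highest peak over any region of a gene within its own library's list (x axis, 0 where no region has a peak), for the 38 receptor genes with a region (y axis). Red circles are the 2 dopamine libraries and blue triangles the 3 GABA libraries. The triangles lie to the right of the circles at 34 genes, and *PK1-R* is the gene with the opposite order.

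Peak heights were then compared at the regions held by all 5 libraries. Log2 fold enrichments were quantile-normalised and fitted with limma over all 16601 such regions of the table, and p-values were adjusted over all of them by Benjamini-Hochberg. Differences are dopamine minus GABA on this log2 scale. Of the 48 receptor regions in the fit, 3 were higher in dopamine neurons and 35 (72.9%) were higher in GABA neurons at an adjusted p under 0.05, while 10 were not past the threshold. Over all 16601 regions 25.3% were higher in dopamine and 27.7% higher in GABA neurons. The median difference was -0.74 over the receptor regions and -0.02 over all regions. Only 26 receptor genes had a region in this fit, since a region needs a peak in every list to enter it. Of these, 23 (88.5%) had at least 1 region higher in GABA neurons and 2 (7.69%) at least 1 region higher in dopamine neurons. Over the 8223 genes in the fit the shares were 35.8% and 34.8%. At start sites, taken as the region nearest to a start site of each gene, 17 of 21 fitted receptor regions were higher in GABA neurons and 1 was higher in dopamine neurons, with 23.1% and 29.0% over all fitted start-site regions. The count of regions higher in dopamine was 1 without library dopamine 1, with median centring in place of quantile normalisation and with no normalisation.

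**Figure D3:**
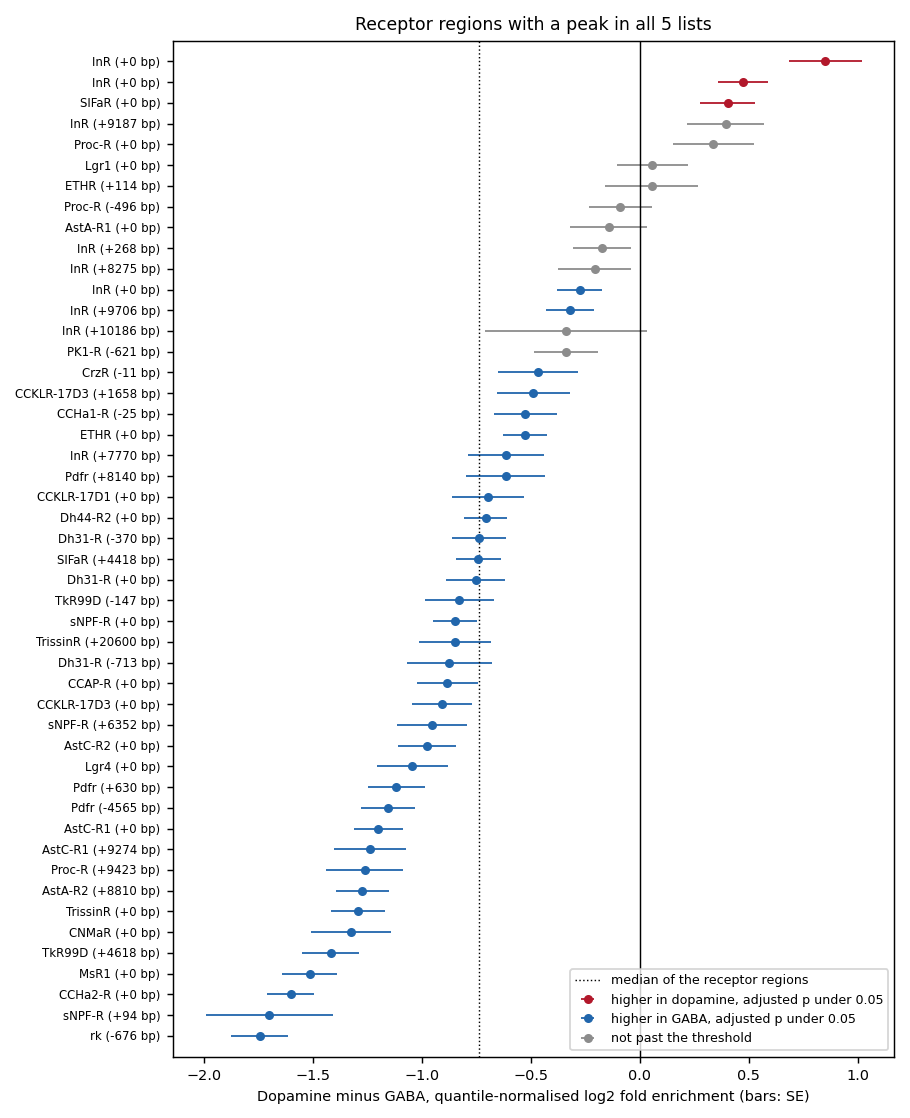
Difference in quantile-normalised log2 fold enrichment, dopamine minus GABA, with its standard error (x axis), at the 48 receptor regions with a peak in all 5 lists (y axis, gene and distance to the nearest start site in bp). Red points passed the limma test as higher in dopamine (3), blue points as higher in GABA (35) and grey points did not pass (10), and the dotted line marks the median of -0.74.

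The roles are read beside the whole table, where 8.42% of regions were dopamine-only and 13.2% GABA-only. The receptors of sleep and clock signalling had 51 regions, of which 1 (1.96%) was dopamine-only and 11 (21.6%) were GABA-only. *Pdfr* is the receptor of PDF, the peptide with which clock neurons keep time together, and it held 9 of these GABA-only regions among its 19. The strongest by mean signal was intronic (X:2568970-2569165, Release 6), with a fold enrichment of 2.29, 2.55 and 2.30 in GABA 1, 2 and 3 and no peak in the dopamine lists. These GABA heights lay below the median of either dopamine list (2.63 and 3.19). A taller intronic *Pdfr* region, 4565 bp before a start site (X:2567099-2567641), was held by all libraries. It reached 2.93 and 3.64 in the dopamine libraries, against 7.34, 8.27 and 6.93 in the GABA libraries. The groups did not overlap there, and the difference was -1.16 (SE 0.12, limma adjusted p = 2.36e-06). At the *Pdfr* start site only dopamine 2 of the dopamine libraries had a peak (3.53), against 5.19, 6.70 and 3.16 in the GABA libraries, so these heights overlapped.

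*CNMaR*, the receptor of CNMamide, had its tallest peaks at the start site (3L:9643652-9644145), a region that also lies within the annotated span of *fry*. The heights were 1.88 and 3.30 in the dopamine libraries, against 7.22, 6.72 and 4.21 in the GABA libraries. The libraries of the neuron types did not overlap, with a difference of -1.33 (SE 0.18, limma adjusted p = 2.43e-05). *Dh31-R*, a receptor of the calcitonin-like diuretic hormone DH31, had 3 fitted regions at or before its start site, and all were higher in GABA neurons, by -0.74 to -0.87. *Dh44-R2*, a receptor of the CRF-like hormone DH44, was tall in both neuron types at its start site, with 4.58 and 6.83 in the dopamine libraries, against 12.1, 12.2 and 9.58 in the GABA libraries. It was higher in GABA neurons (-0.71, SE 0.10, limma adjusted p = 2.69e-05), although an intronic region 5518 bp into the gene was dopamine-only, with 3.01 and 3.41. The start site of *Dh44-R1*, the other DH44 receptor, had 2.62 in dopamine 2 and no peak in dopamine 1, against 4.74, 5.38 and 3.38 in the GABA libraries.

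*SIFaR*, the receptor of SIFamide, which is known for effects on courtship, feeding and sleep, showed both directions within one gene. Its start-site region (3R:21293530-21294887) had 4.81 and 6.14 in the dopamine libraries, against 4.14, 4.54 and 3.90 in the GABA libraries. The groups did not overlap, and the region was higher in dopamine neurons by 0.40 (SE 0.13, limma adjusted p = 0.0145). This call was lost without library dopamine 1 (0.38, limma adjusted p = 0.117) or GABA 1 (0.33, limma adjusted p = 0.0699), with median centring (0.28, limma adjusted p = 0.0987) and with no normalisation (0.38, limma adjusted p = 0.355). With the −log10 q-value as height the difference was -0.33 (limma adjusted p = 0.149). An intronic *SIFaR* region 4418 bp into the gene (3R:21288791-21289580) had 3.83 and 5.35 in the dopamine libraries, against 9.05, 8.70 and 6.73 in the GABA libraries, and was higher in GABA neurons by a difference of -0.74 (SE 0.10, limma adjusted p = 2.83e-05).

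The receptors of feeding and metabolism had 84 regions next to 12 of 13 genes. Of these, 4 (4.76%) were dopamine-only and 17 (20.2%) GABA-only. In the fit 2 were higher in dopamine and 12 higher in GABA neurons out of 19, with 25.3% and 27.7% over all fitted regions. *sNPF-R*, the receptor of short neuropeptide F, which promotes food intake and growth, had among the tallest GABA peaks of the set. At its start site (3L:20088964-20089298) the heights were 4.43 and 6.60 in the dopamine libraries, against 15.0, 12.8 and 9.13 in the GABA libraries. The dopamine and GABA heights were apart, with a difference of -0.85 (SE 0.10, limma adjusted p = 6.45e-06). The neighbouring promoter region (3L:20088642-20088913) gave a larger difference of -1.70 (SE 0.29, limma adjusted p = 1.66e-04). There the highest peaks of GABA 1 and 2 were those of the start site, reaching into both regions. With summits required inside the region, its difference was -0.91. The gene also had 4 GABA-only regions, the one of highest mean signal in an exon (3L:20075008-20075657) with 2.45, 2.01 and 3.32 in GABA 1, 2 and 3, and 1 dopamine-only promoter region (3L:20087782-20087970) with 2.18 and 2.16 in dopamine 1 and 2.

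*CCHa2-R*, the receptor through which the peptide CCHamide-2 reports nutrition to insulin-producing cells, had 3.01 and 3.41 at its start site in the dopamine libraries, against 11.4, 12.3 and 9.30 in the GABA libraries (2R:6050645-6051385). This was among the widest separations of the set, with a difference of -1.60 (SE 0.11, limma adjusted p = 1.35e-07). *AstA-R2*, a galanin receptor-like gene for allatostatin A, had 7 GABA-only regions among the 16 assigned to it, but 4 of the 7 lie inside the gene *htt*. The start-site region was one of the other 3, with 3.51, 3.48 and 2.41 in the GABA libraries and no dopamine peak. The GABA-only region of highest mean signal lay in an intron of *htt* (3R:28722285-28722892), 21890 bp from the *AstA-R2* start site, and had 2.05, 2.68 and 2.11. The only fitted region, annotated as distal intergenic (3R:28735213-28735972), had 2.86 and 3.76 in the dopamine libraries, against 10.6, 8.70 and 6.28 in the GABA libraries, a difference of -1.28 (SE 0.12, limma adjusted p = 8.32e-07). *AstA-R1*, the other allatostatin A receptor, had -0.14 at the start site (SE 0.18, limma adjusted p = 0.519), with overlapping heights of 2.25 and 2.39 in the dopamine libraries, against 2.21, 3.08 and 2.06 in the GABA libraries.

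The drosulfakinin receptors, which convey satiety signals related to cholecystokinin, were both higher in GABA neurons at the start site, by -0.70 (SE 0.17, limma adjusted p = 0.00244) at *CCKLR-17D1* and by -0.91 (SE 0.14, limma adjusted p = 5.67e-05) at *CCKLR-17D3*. *NPFR*, the receptor of the NPY-like peptide NPF, had a start-site peak of 1.93 in dopamine 2 and none in dopamine 1, against 6.69, 8.39 and 4.48 in the GABA libraries. An intronic *NPFR* region (3R:6190548-6190737) had the opposite order, with 3.01 and 4.55 in the dopamine libraries, against 2.43 in GABA 2 and no peak in GABA 1 and 3. *CCHa1-R* was higher in GABA neurons at its start site (-0.53, SE 0.14, limma adjusted p = 0.00599). Peaks were few at *AkhR*, *Lkr* and *RYa-R*. *AkhR*, which mobilises lipid in the fat body, had 2.03 at its start site in dopamine 1 and 2.37 in GABA 3 and no peak in the other libraries. *Lkr*, the leucokinin receptor, had a single region, with 2.18 and 3.27 in GABA 1 and 2 and no peak in the dopamine libraries or GABA 3. *RYa-R*, the RYamide receptor, had a start-site peak in GABA 2 alone (2.74), and its other region, 777 bp before a start site, overlaps the gene *TwdlC*.

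*InR* had peaks at more of its regions in the dopamine than in the GABA libraries. Of its 16 regions, 14 and 15 had a peak in dopamine 1 and 2, against 10, 11 and 11 in GABA 1, 2 and 3. It had 3 dopamine-only regions and no GABA-only region, and 9 regions in all 5 lists. Of the 9, 2 were higher in dopamine neurons and 3 higher in GABA neurons. The largest difference in the dopamine direction was at an internal start site (3R:21591761-21592139), where the heights were 4.58 and 5.12 in the dopamine libraries, against 2.62, 2.59 and 2.59 in the GABA libraries. The groups lay far apart relative to their spread (0.85, SE 0.17, limma adjusted p = 5.54e-04). A nearby start-site region (3R:21589777-21590438) had 5.63 and 7.06 in the dopamine libraries, against 5.63, 5.17 and 4.57 in the GABA libraries. Its lowest dopamine height and its highest GABA height were equal to 3 digits before normalisation. The normalised values were 2.90 and 2.73 in the dopamine libraries, against 2.36, 2.23 and 2.43 in the GABA libraries (0.47, SE 0.11, limma adjusted p = 0.00279). This call did not hold without library dopamine 1 (0.42, limma adjusted p = 0.0548), with median centring (0.20, limma adjusted p = 0.185) or with no normalisation (0.30, limma adjusted p = 0.482). The outermost start site (3R:21618857-21619559) had 4.66 and 6.37 in the dopamine libraries, against 7.75, 8.37 and 6.04 in the GABA libraries (-0.28, SE 0.10, limma adjusted p = 0.0321). These raw heights overlapped. The normalised values did not, at 2.49 and 2.51 in the dopamine libraries, against 2.74, 2.82 and 2.78 in the GABA libraries. The call was lost without GABA 1 (-0.28, limma adjusted p = 0.0771) or GABA 2 (-0.25, limma adjusted p = 0.0835) and with no normalisation (-0.43, limma adjusted p = 0.302). It was also lost without the trend (limma adjusted p = 0.0886) and with the replicate block (limma adjusted p = 0.0502). Leaving out either dopamine library lost the call too, with a difference of -0.28 without dopamine 1 and -0.31 without dopamine 2. The dopamine-only *InR* region of highest mean signal, 768 bp before a start site (3R:21590959-21591095), had 3.01 and 2.84 in dopamine 1 and 2.

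The receptors of moulting and ecdysis had 15 regions, of which 2 (13.3%) were dopamine-only and 1 (6.67%) was GABA-only. Both dopamine-only regions lay at *CCAP-R*, and these counts are too small to set apart from the shares of the whole table. In the fit 0 of 4 were higher in dopamine and 3 higher in GABA neurons. Among these receptors, *rk* had the largest difference of the whole set. It encodes the receptor of bursicon, the hormone of cuticle tanning and wing expansion after the adult emerges. A region 676 bp before its start site (2L:14001924-14002135) had 2.25 and 2.84 in the dopamine libraries, against 9.87, 11.5 and 6.45 in the GABA libraries. The lowest GABA height was above both dopamine heights, and the difference was -1.75 (SE 0.13, limma adjusted p = 1.99e-07). At the *rk* start site dopamine 2 had 2.50 and dopamine 1 no peak, against 6.75, 7.44 and 3.16 in the GABA libraries. *ETHR*, the receptor of ecdysis-triggering hormone, was tall in both neuron types at its start site, with 4.81 and 6.94 in the dopamine libraries, against 12.1, 11.6 and 7.55 in the GABA libraries, and was higher in GABA neurons (-0.53, SE 0.10, limma adjusted p = 4.49e-04). *CCAP-R*, the receptor of crustacean cardioactive peptide, had both patterns. Its start site was higher in GABA neurons (-0.88, SE 0.14, limma adjusted p = 8.09e-05), with 2.63 and 3.76 in the dopamine libraries, against 6.36, 6.86 and 4.17 in the GABA libraries. Its other 2 regions were dopamine-only, the stronger one 616 bp into the gene (3R:25955557-25955654) with 3.31 and 4.10 in dopamine 1 and 2.

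**Figure D4:**
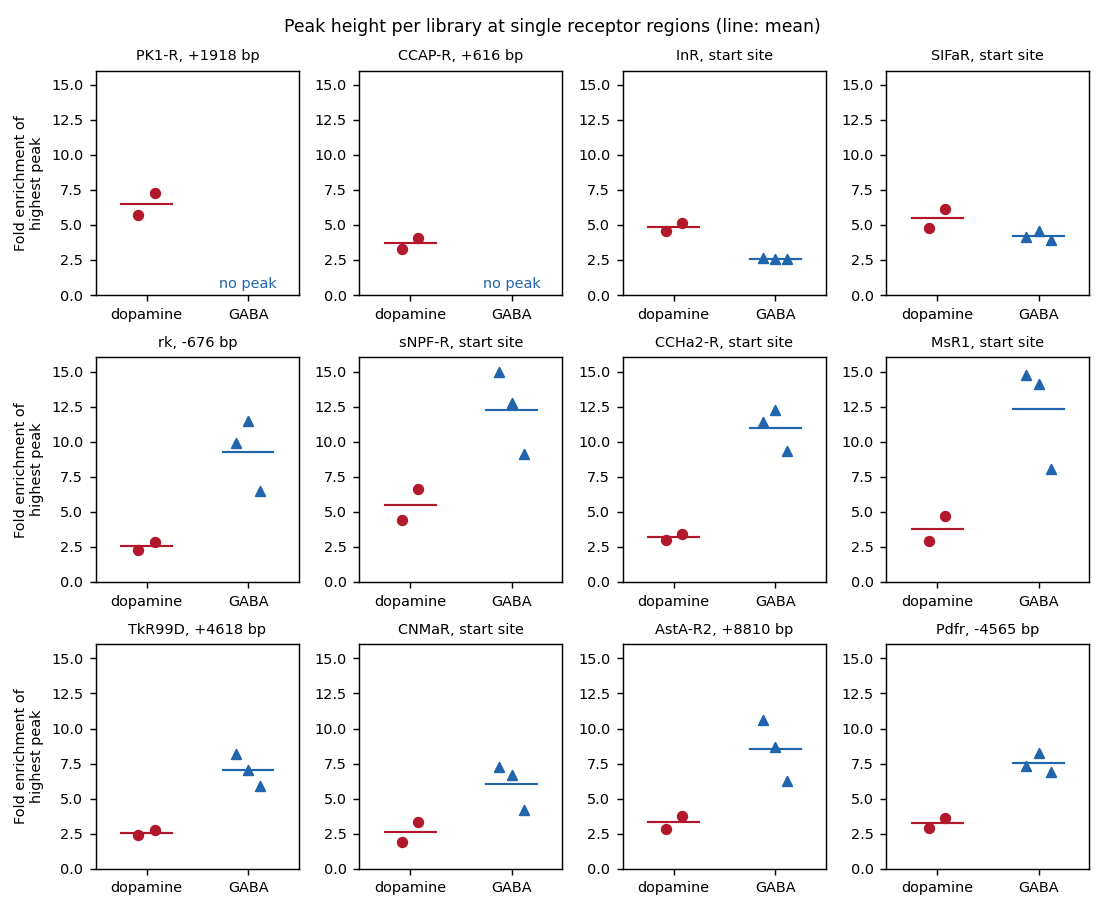
Fold enrichment of the highest peak (y axis) in the 2 dopamine libraries (red circles) and the 3 GABA libraries (blue triangles) at 12 receptor regions, one per panel, with the distance to the nearest start site in the panel title and the mean as a line. *PK1-R* and *CCAP-R* show regions with no GABA peak, *InR* and *SIFaR* regions that passed as higher in dopamine, and the other 8 panels regions that passed as higher in GABA.

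The receptors of neuromodulation and reproduction had 113 regions next to 17 genes, with 6 (5.31%) dopamine-only and 39 (34.5%) GABA-only. None of their 15 fitted regions was higher in dopamine neurons, while 11 were higher in GABA neurons. The myosuppressin receptors had many of the GABA-only regions. *MsR1* had 9 GABA-only regions among 11 and *MsR2* 4 among 12. The *MsR1* start site (3L:2322405-2322919) had 2.93 and 4.67 in the dopamine libraries, against 14.8, 14.1 and 8.08 in the GABA libraries. The heights in GABA 1 and 2 were above every peak of the dopamine lists, so the raw separation partly reflects the range of the lists. The normalised values were also apart, at 1.67 and 1.96 in the dopamine libraries, against 3.43, 3.45 and 3.12 in the GABA libraries. The difference was -1.52 (SE 0.13, limma adjusted p = 3.41e-07). Most GABA-only regions of the gene were intronic and weaker, the one of highest mean signal (3L:2333513-2333696) with 3.46, 2.64 and 2.55 in GABA 1, 2 and 3. The one just before the start site had the heights of the start-site peaks themselves, which reach into it. At *MsR2* the GABA-only region of highest mean signal was exonic (3L:2298307-2298969), with 2.29, 2.32 and 3.38, and the start site had 2.39 in dopamine 2 and no peak in dopamine 1, against 6.42, 4.75 and 3.95 in the GABA libraries.

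*TkR99D*, a tachykinin receptor, had 5 GABA-only regions among 15. The one of highest mean signal, in an exon (3R:29958978-29959413), had 2.85, 2.53 and 2.63 in GABA 1, 2 and 3. A fitted intronic region 4618 bp into the gene (3R:29964549-29964829) had 2.40 and 2.73 in the dopamine libraries, against 8.21, 7.01 and 5.93 in the GABA libraries. Both dopamine heights there lay below the medians of their lists, and the difference was -1.42 (SE 0.13, limma adjusted p = 7.01e-07). *TkR86C*, the other tachykinin receptor of the set, had no dopamine peak at any of its 3 regions, and 2.79 and 4.85 at its start site in GABA 1 and 2. The receptors of allatostatin C, related to vertebrate somatostatin receptors, were both higher in GABA neurons at the start site, by -1.20 (SE 0.11, limma adjusted p = 8.49e-07) at *AstC-R1* and by -0.98 (SE 0.13, limma adjusted p = 2.12e-05) at *AstC-R2*. *TrissinR* was also higher in GABA neurons there (-1.30, SE 0.12, limma adjusted p = 8.32e-07), as was the orphan relaxin-type receptor *Lgr4* (-1.05, SE 0.16, limma adjusted p = 7.14e-05) and, by less, the corazonin receptor *CrzR* (-0.47, SE 0.18, limma adjusted p = 0.0420). *CrzR* also had 1 dopamine-only region, in an intron (3L:12349409-12349491), with 2.40 and 2.96 in dopamine 1 and 2. *Proc-R*, the proctolin receptor, had -1.26 at an intronic region 9423 bp into the gene (SE 0.18, limma adjusted p = 2.50e-05), whereas its start site had 0.34 (SE 0.19, limma adjusted p = 0.139). *Lgr1*, a receptor of the glycoprotein hormone type, had 0.06 at its start site (SE 0.16, limma adjusted p = 0.788).

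*FMRFaR* had a start-site peak of 3.07 in dopamine 2 and none in dopamine 1, against 5.63, 7.12 and 4.17 in the GABA libraries. *SPR*, which binds sex peptide and myoinhibitory peptides, had no dopamine peak near its start site and 2.90 and 3.11 in GABA 1 and 2. *Lgr3*, the receptor of the growth-coordinating peptide Ilp8, was the only gene with regions whose start-site region lay under no peak in any list. Over all 38 genes the start-site region was dopamine-only at 1, GABA-only at 3 (7.89%) and in all 5 lists at 21 (55.3%), with 7.63%, 6.96% and 45.8% over all genes of the table. The GABA-only share was near that of all genes. The dopamine-only share of 2.63% was lower but rests on 1 gene, and the share in all 5 lists was higher than over all genes. Of the 68 GABA-only regions 51 lay inside the receptor gene, 6 inside another gene and 11 between genes.

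*PK1-R* was the one start site in the dopamine lists only. It encodes a receptor of the pyrokinin type, and 5 of its 8 regions were dopamine-only. The region of highest mean signal (3R:14100222-14100919), within the gene and 1918 bp from the nearest start site, had 5.71 and 7.28 in dopamine 1 and 2 and no peak in any GABA list. Its mean signal over all libraries, 1059 normalised counts by the authors' mean, was far above the median of 92.7 over the dopamine-only receptor regions. At the start site itself the peaks had 3.38 and 4.44, and these peaks also reached the neighbouring regions 86 bp inside and 2 bp before the start site, so that these 3 regions rest on the same peaks. A region 621 bp before the start site was in all 5 lists, with 3.46 and 4.10 in the dopamine libraries, against 5.07, 4.35 and 4.32 in the GABA libraries (-0.34, SE 0.15, limma adjusted p = 0.0612). The other receptors of the pyrokinin family had no dopamine peak. *PK2-R1* had 3.51, 3.38 and 1.84 at its start-site region in GABA 1, 2 and 3, and *PK2-R2* had 3.46, 4.80 and 1.89. The pyrokinin receptors therefore differed in which lists held their start sites.

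Receptor classes that are close in function were set beside the neuropeptide receptors. Receptors of dopamine, serotonin, octopamine, tyramine and muscarinic acetylcholine signalling (20 genes, 237 regions) had 2.53% dopamine-only and 27.0% GABA-only regions, and in the fit 5 of 42 regions were higher in dopamine and 32 higher in GABA neurons. The nicotinic acetylcholine receptor subunits (10 genes, 84 regions) had 1.19% and 21.4%, with 0 of 16 regions higher in dopamine and 12 higher in GABA neurons. The neuropeptide receptors, at 4.94% and 25.9%, had a dopamine-only share above both classes and a GABA-only share between them, and the differences between these classes were not tested. Genes of the peptides themselves had regions at 33 of 40 genes. Of these 101 regions 8.91% were dopamine-only and 19.8% GABA-only, and 0 and 10 of 11 fitted regions were higher in dopamine and in GABA neurons. Among the few peptide genes with dopamine-only regions, named after their values had been seen, were *NPF* with 3 of 7 and *CNMa* with 2 of 3 regions, while *NPFR* and *CNMaR* had no dopamine-only region.

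**Figure D5:**
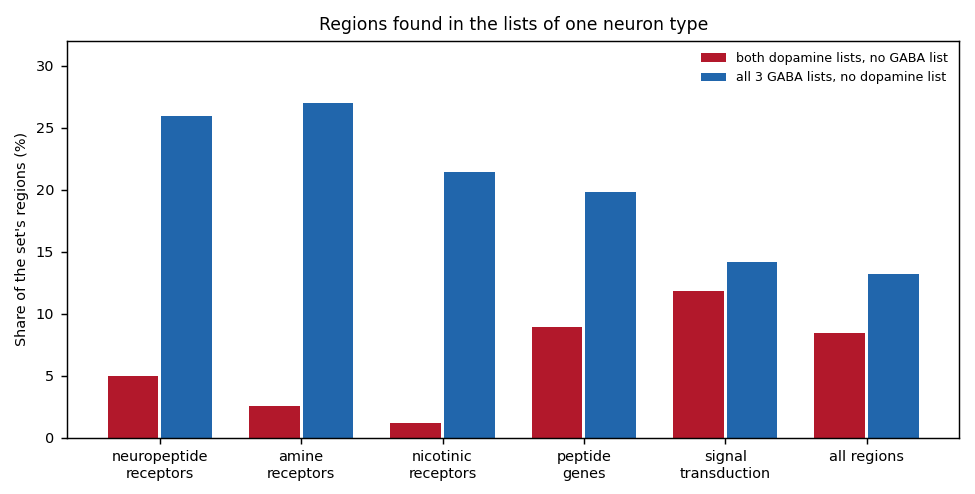
Share of each gene set's regions (y axis, %) that had a peak in both dopamine lists and no GABA list (red) or in all 3 GABA lists and no dopamine list (blue), for the neuropeptide receptors, 4 other gene sets and all regions of the table. The blue bar of the neuropeptide receptors reaches 25.9%, against 13.2% for all regions, and the red bar 4.94%, against 8.42%.

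The genes that carry receptor signals into the cell had a GABA-only share closer to that of the whole table. G proteins, cyclases, kinases and the insulin branch (30 genes, 29 with 346 regions) had 11.8% dopamine-only and 14.2% GABA-only regions. Over the whole table these shares were 8.42% and 13.2%. In the fit 22 of 109 were higher in dopamine and 45 higher in GABA neurons, with 25.3% and 27.7% over all fitted regions. The median difference was -0.13. Genes within this list, named after their values had been seen, lay at both ends. *Galphao*, the G protein alpha subunit of the Go type, had 6 of 7 fitted regions higher in GABA neurons and none higher in dopamine neurons, and the cyclic AMP phosphodiesterase gene *dnc* had no dopamine-only and 15 GABA-only regions among 52. In the insulin branch, *foxo*, the transcription factor held back by insulin signalling, had 12 dopamine-only and no GABA-only regions among 22, and 5 of its 6 fitted regions were higher in dopamine neurons. *Pdk1* had 5 dopamine-only regions among 24 and *S6k* 4 among 6, and neither had a GABA-only region. The insulin receptor and these members of its pathway therefore had dopamine-only regions where 26 of the other receptors had GABA-only ones.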

How the data were processed

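ATAC-seq was analysed in 2 dopamine and 3 GABA libraries from adult fly heads. Per the paper's methods, Bowtie2 alignment by the authors to Release 6 of the fly genome followed adapter trimming. Picard then took out duplicate reads, MACS2 gave a peak list for every library, and featureCounts and the authors' DESeq2 run made the comparison table. The settings of MACS2 and the making of the table's regions are not given in the sources used here. The deposited peak lists give the authors' fold enrichment (a ratio over background) and −log10 p- and q-values at the summit, with an interval listed once per summit. The authors' table gives each region a mean signal, which is a normalised count over all 5 libraries. It also holds the authors' own log2 fold changes, standard errors, statistics and p-values, none of which were used. No per-library column was left out (0).

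Receptor regions were taken by the nearest-gene symbol of the authors' table. All 39 symbols matched RefSeq (Release 6). Peak positions were converted to count from 1. Overlaps were found with Python 3.11.15, numpy 2.4.6 and pandas 2.3.3, and figures drawn with matplotlib 3.10.9. Regions with a peak in every list were fitted with limma 3.58.1 (R 4.3.3, empirical Bayes with a trend, quantile normalisation, 3 residual degrees of freedom) at an adjusted p under 0.05. On simulated data over 16601 regions the same limma model, without quantile normalisation, recovered 145 of 200 differences of 1.0 on the log2 scale, with 2 false calls. It recovered 0 of 200 differences of 0.5. Only 200 regions were shifted in each run, whereas 25.3% and 27.7% of regions were called in the data. These counts therefore do not measure the power or the false calls of the real fit. The overlap search was tested on simulated intervals.

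Values in every library were given for the 6 genes with the most dopamine-only and the 6 with the most GABA-only regions (ties by mean signal, and there the region of highest mean signal). They were also given for the 6 regions of largest difference in each direction past the limma threshold (3 in dopamine) and for part of the start-site regions. At other named start-site regions only the fitted difference was given, mostly with its SE and adjusted p. Exceptions are marked as named after seeing values. The members, gene lists and roles were chosen with earlier results of these data known. Of the lists, *He*, *Akt*, *SP*, *CCAP*, *hug*, *SIFa*, *RYa*, *Akh* and *Gpa2* had no region under these symbols. Alternatives were a stricter peak threshold, overlap and summit rules, equal peak numbers, a minimum mean signal, equal list lengths for the percentiles (added later), RefSeq gene spans with 2 kb on each side, promoters alone, other normalisations and heights, no trend, a replicate block and leaving out each library. Sequences were not used here.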

Additional observations from a re-analysis of the deposited data

How the results depend on the processing

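The counts of dopamine-only, GABA-only and shared regions, of regions higher in dopamine or in GABA neurons and of genes ordered by their highest peak gave 77 values under the alternatives, of which 68 lay within 1.5 times the count first given. The dopamine-only count was 7 among regions of at least the median mean signal. The GABA-only count was 44 with equal peak numbers, 35 among regions of at least the median mean signal and 14 in promoters alone, where the last 2 settings hold fewer regions by construction (123 and 100). With peaks of −log10 q of at least 5, 30 regions were shared and 21 of them higher in GABA neurons. The count higher in dopamine was 1 with median centring and 1 with no normalisation, and the cause was not tested. Leaving out each library in turn gave 13 to 18 dopamine-only, 74 to 82 GABA-only and 48 to 60 shared regions, 1 to 3 regions higher in dopamine (1 without dopamine 1) and 30 to 35 higher in GABA neurons. Without a dopamine library, the lone one was assumed to vary like the GABA libraries. Of the differences at the regions named as largest and at the outermost *InR* start site, 158 of 173 kept direction and side of the threshold, 14 no longer passed (all at *InR* or *SIFaR*) and 1 reversed, *SIFaR* at its start site with the −log10 q-value as height (-0.33). Library numbers are shared by the groups, and the same-numbered libraries deviated with r = -0.0319 and 0.0452. The deviations of the 2 dopamine libraries are exact opposites, so both values rest on the same contrast and are a weak check of pairing. The numbers were not taken as pairs. With the replicate block, in which GABA 3 has no dopamine counterpart and adds nothing to the difference, 3 regions were higher in dopamine and 32 higher in GABA neurons. Of the 35 regions higher in GABA neurons, 26 were also called without dopamine 1, 29 without dopamine 2 and 27 with no normalisation, and none that could still be fitted changed sign under any alternative. Fold enrichment without read counts limits all of these values: weak peaks missing from a list cannot be told from closed chromatin.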
